A study of Rattus norvegicus with 3 samples.

Results

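The Foxo3 locus was examined in the MBD-seq data of newborn rat liver as a window of 1 Mb on chromosome 20 of the rn4 assembly (chr20:45770000-46770000), centred on the differentially methylated region (DMR) that the study annotates to Foxo3. The window was chosen by the position of that DMR, which the study had selected on its FDR in MLP vs. C, so the score of the DMR is given as a description and was not tested. The members are the regions of the 3 deposited lists that overlap this window, 75 of 95306 in all. They comprise 31 of 35998 regions of the MLP vs. C list, where MLP exceeded C, 21 of 33730 regions of the MLP vs. MLP-F list, where MLP exceeded MLP-F, and 23 of 25578 regions in that of MLP-F vs. C, where MLP-F exceeded C.

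All libraries came from livers of male Wistar pups at 1 day of age, and the groups differed in the diet of the dam. MLP dams received a low protein diet, MLP-F dams the low protein diet with added folic acid, and C dams the normal diet. Each group was measured in 1 library of DNA pooled from several pups of 1 litter (6 animals by the sample labels, a larger number by the study's methods), so diet, litter and library cannot be told apart. There was no group with the normal diet and added folic acid. In MBD-seq, fragments of methylated DNA are captured by a methyl-CpG binding protein domain and sequenced. A region enters a list when the peak caller MACS calls it enriched in the first library over the second at a p cut-off. The score of a region is 10 times the −log10 of the MACS p, and the lists run down to a p of 1e-05. By the study's library counts MLP was the deepest library and C the shallowest. Scores depend on the depth of both libraries and are therefore read within a list only, and a region missing from a list is not shown to be equal between the libraries. Losses, meaning regions where MLP or MLP-F fell below its comparator, were not analysed here.

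Foxo3 encodes a forkhead transcription factor at the end of the insulin and growth factor pathway. When insulin signals through phosphoinositide 3-kinase, the kinase AKT phosphorylates FOXO proteins and they leave the nucleus. When the signal is low they stay on DNA and switch on genes of cell cycle arrest, apoptosis, antioxidant defence and autophagy, and in liver FOXO factors take part in the fasting programme of glucose production. In the current rat assembly, GRCr8, the protein-coding genes next to Foxo3 on chromosome 20 are Armc2, Sesn1 and Cep57l1 on the side of lower positions and Afg1l, Snx3 and Nr2e1 on the other. Sesn1 encodes a stress-induced sestrin that restrains mTORC1 and is a known FOXO target in mammalian cells, Snx3 a sorting nexin of endosomes, and Nr2e1 an orphan nuclear receptor of neural stem cells. These genes were not placed on rn4, so the regions of the window are described by their distance below (towards lower positions) or above the centre of the Foxo3 region, and whether they lie in a gene, an exon or an intron was not analysed here.

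At the Foxo3 DMR and next to it the lists held regions at 2 neighbouring sites, of which the study's table names only the DMR. The Foxo3 DMR (chr20:46267726-46268454, 729 bp) was in the MLP vs. C list with a score of 130.63, at place 6368 of 35998 in that list. The same site was in the MLP-F vs. C list, as a region of 634 bp (chr20:46267724-46268357) with a score of 84.15, at place 7858 of 25578. The shared stretch covered 632 bp, nearly all of the MLP-F vs. C region. No MLP vs. MLP-F region overlapped the DMR. Thus both low protein libraries, with and without folic acid, were listed above C at this site, and the MLP library was not listed above MLP-F. The DMR was selected on an FDR, whereas the MLP-F vs. C list gives none, so its entry here is known only to pass the p cut-off. The study itself reports no DMR between MLP-F and C, without naming the FDR in that statement.

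The neighbouring site ended 770 bp below the DMR and had the other pattern. There a region of 572 bp (chr20:46266384-46266955) was in the MLP vs. C list with a score of 72.74 (place 19975) and in the MLP vs. MLP-F list with a score of 59.1 (place 27125 of 33730). No MLP-F vs. C region overlapped it. Over the 2071 bp that span these sites, MLP was therefore listed above C at both sites, while MLP-F was listed above C at the DMR and below MLP at its neighbour. The difference in pattern between these sites was not tested, since each pattern comes from 1 library per group and from a p cut-off.

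**Figure D1:**
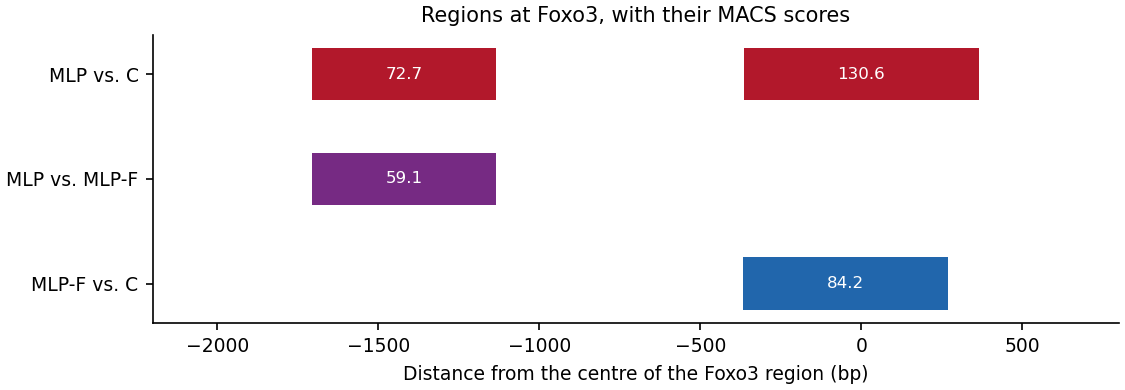
Regions of the 3 lists (rows) within 2 kb of the centre of the Foxo3 DMR; the x axis is the distance from that centre in bp, each bar spans a region to scale, and the number on it is its MACS score. The DMR on the right is in the MLP vs. C and MLP-F vs. C lists, and its neighbour on the left, 572 bp long, is in the MLP vs. MLP-F and MLP vs. C lists.

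Beyond these sites the lists were empty for some distance. The next MLP vs. C region towards higher positions lay 38.6 kb away (chr20:46307061-46307761, score 76.02), and the next MLP vs. MLP-F region on that side lay 66.0 kb away (chr20:46334455-46336550, score 96.08). With 2096 bp, this MLP vs. MLP-F region was the longest region of the window in any list. The next MLP-F vs. C region above the DMR was 146.3 kb away (chr20:46414802-46415757, score 93.81), and below the DMR it was 44.3 kb away (chr20:46222907-46223416, score 70.85). Both of these MLP-F vs. C regions overlapped an MLP vs. C region, as did that at the DMR.

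The Foxo3 DMR had the fourth highest of the 31 MLP vs. C scores in the window. The scores ranged between 50.82 and 271.93 with a median of 75.36, against a median of 77.39 over the whole list. The highest belonged to a region of 1207 bp 145.0 kb below Foxo3 (chr20:46122503-46123709), at place 1004 of the list. A region of 1120 bp at the lower end of the window (chr20:45807639-45808758) followed with 225.05, and then a region of 1077 bp 307.2 kb above Foxo3 (chr20:46574729-46575805) with 147.4. A score of at least 100 was reached by 10 of the 31 regions (32.3%), against 31.1% of the whole list, and a score of at least 200 by 2 (6.45%), against 6.35%. By score, then, the MLP vs. C regions around Foxo3 were spread much as those of the whole list.

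The study's table of annotated DMRs holds 2 of these 31 regions, the Foxo3 DMR and a region 360.4 kb above it (chr20:46628183-46628817, 635 bp, score 123.08) to which it gives no gene symbol. That table keeps only regions that passed the study's FDR, a small part of the 35998 regions of the deposited list. The Foxo3 DMR set the window, so its place among the 2 was fixed in advance, and nothing is read from this count. The 3 higher-scoring regions of the window are in the deposited list and not in that table. The region without a symbol overlapped neither of the other lists.

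The regions that separated MLP from MLP-F were led by another site. Among the 21 MLP vs. MLP-F regions the median score was 73.41 (81.77 over the whole list), and the highest, 211.32, belonged to a region of 1574 bp 247.4 kb below Foxo3 (chr20:46019885-46021458, place 3200). In MLP vs. C the same region had a score of 82.72, at place 16107. A score of at least 100 was reached by 5 of the 21 regions (23.8%), against 36.8% of the whole list.

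The 23 MLP-F vs. C regions had a median score of 67.86 (69.37 over the whole list). Their highest score, 138.49, belonged to a short region of 385 bp 240.6 kb below Foxo3 (chr20:46027336-46027720, place 1835) that was in no other list. Further regions with scores above 100 lay 206.8 kb (109.1) and 176.2 kb (101.2) above Foxo3, and these too were in no other list. These were the 3 of 23 regions (13.0%) with a score of at least 100, against 19.1% of the whole list. Over the whole MLP-F vs. C list 68.1% of regions were in no other list.

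**Figure D2:**
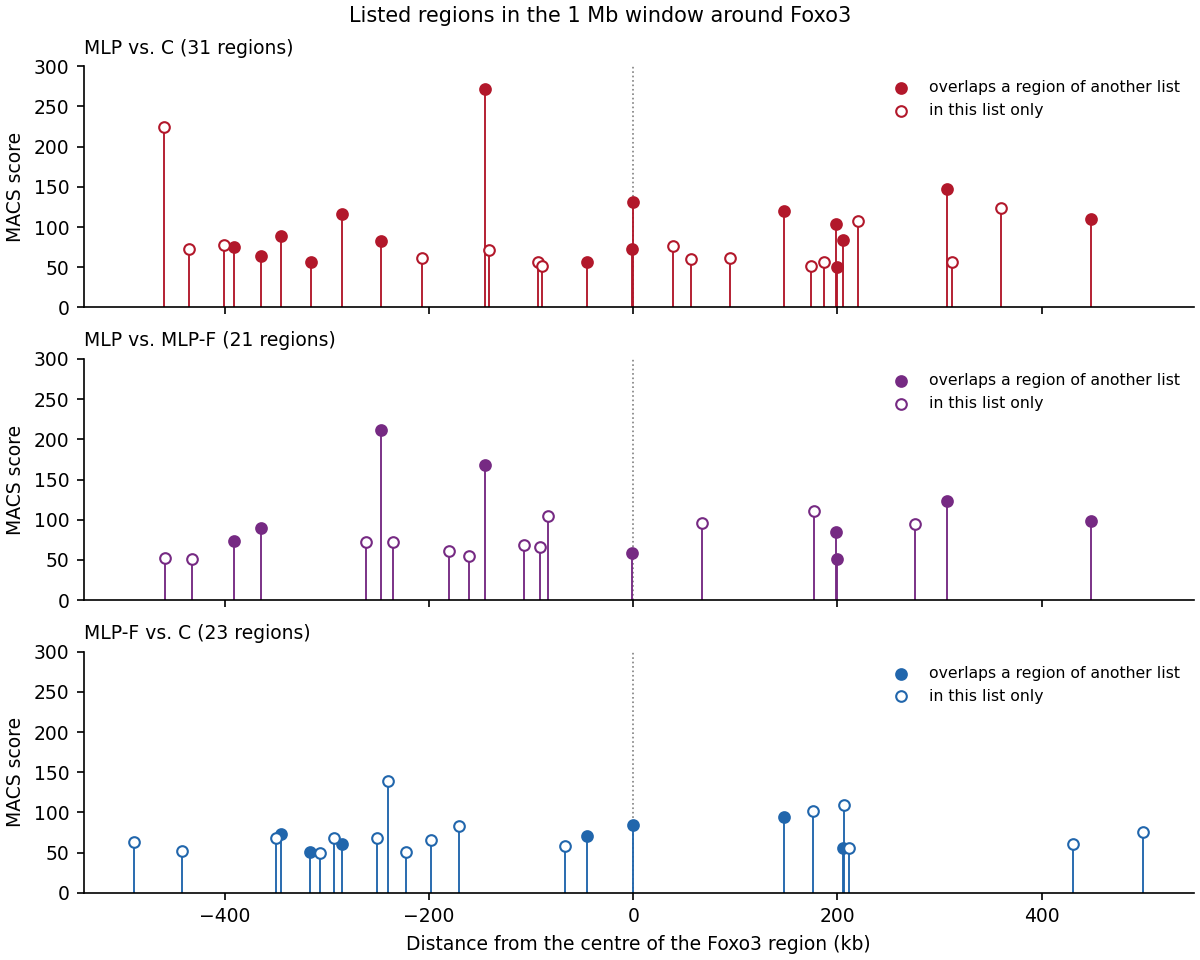
MACS score (y axis) of each listed region against its distance from the centre of the Foxo3 DMR in kb (x axis), negative towards lower positions, with a panel per list; filled points overlap a region of another list and open points do not, and the dotted line marks the DMR. The MLP vs. C panel holds 31 regions with scores up to 271.93, the MLP vs. MLP-F panel 21 up to 211.32 and the MLP-F vs. C panel 23 up to 138.49.

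Of the 31 MLP vs. C regions, 9 (29.0%, 95% Wilson interval 16.1 to 46.6%) were also in the MLP vs. MLP-F list, against 39.4% of the whole MLP vs. C list. A further 7 (22.6%, 11.4 to 39.8%) overlapped an MLP-F vs. C region, against 22.6% of the whole list. The remaining 15 (48.4%, 32.0 to 65.2%) were in neither, against 39.1% of the whole list, and 0 were in all 3 lists. Each interval of the window holds the percent of the whole list, so no difference from the list was detectable at this number of regions. The intervals cover counting error only, and neighbouring regions are not replicates.

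The 9 regions in both MLP lists had the same start and end in each, as did all 14194 such regions of the whole MLP vs. C list. None of the 7 regions shared with the MLP-F vs. C list had the same start and end there, as was the case for all 8144 such regions of the whole list. The 9 lay on both sides of Foxo3, between 390.9 kb below it and 447.9 kb above it. They included the highest-scoring MLP vs. C region of the window, at 145.0 kb below (271.93 against C and 168.07 against MLP-F), the neighbour of the DMR, and the region 307.2 kb above (147.4 against C and 123.89 against MLP-F). A pair of them stood side by side, 198.4 and 199.3 kb above Foxo3 with a gap of 194 bp. The longer of the pair (chr20:46466165-46466890) had scores of 103.82 against C and 85.21 against MLP-F. The shorter (chr20:46467085-46467641) scored 50.82 in both lists, close to the lowest score that either list holds.

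The 7 regions shared with the MLP-F vs. C list lay between 344.8 kb below and 205.2 kb above Foxo3, and the DMR had the highest MLP vs. C score among them. The next were a region 147.2 kb above Foxo3 (chr20:46415023-46415654), with scores of 120.23 for MLP against C and 93.81 for MLP-F against C, and a region 285.5 kb below (chr20:45982191-45983000) with scores of 116.79 for MLP against C and 61.0 for MLP-F against C. At the region 44.9 kb below Foxo3 (chr20:46222691-46223697) the MLP vs. C score was 56.54 and the MLP-F vs. C score 70.85. Of these 7 the DMR had the highest score in the MLP vs. C list and, in the MLP-F vs. C list, followed the region at 147.2 kb.

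Seen from the MLP vs. MLP-F list, 9 of the 21 regions (42.9%, 24.5 to 63.5%) were also in the MLP vs. C list, against 42.1% of the whole list, and 0 overlapped an MLP-F vs. C region, against 1.27%. Seen from the MLP-F vs. C list, 7 of the 23 regions (30.4%, 15.6 to 50.9%) overlapped an MLP vs. C region, against 31.8% of the whole list, and 0 overlapped an MLP vs. MLP-F region, against 1.67%. The remaining 16 MLP-F vs. C regions (69.6%, 49.1 to 84.4%) were in neither MLP list, against 68.1% of the whole list. Each comparison shares a library with each of the others, so these overlaps are not independent of each other.

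Merged where they overlapped by at least 1 bp, the 75 regions formed 59 loci. Of these, 15 were in the MLP vs. C list only, 12 in the MLP vs. MLP-F list only and 16 in the MLP-F vs. C list only. A further 9 were in both MLP lists, and 7, among them the DMR, were in the MLP vs. C and MLP-F vs. C lists. Loci in the MLP-F vs. C list only made up 27.1% of the window (17.4 to 39.6%), 20.2% of the 2143 loci of chromosome 20 and 23.9% of the 72909 loci of the series. Loci with the pattern of the DMR made up 11.9% (5.87 to 22.5%), against 10.1% and 10.6%, and loci with the pattern of its neighbour 15.3% (8.24 to 26.5%), against 19.4% and 18.9%. The window thus held each of the common patterns, and its intervals held the percents of the chromosome and of the series in every combination.

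**Figure D3:**
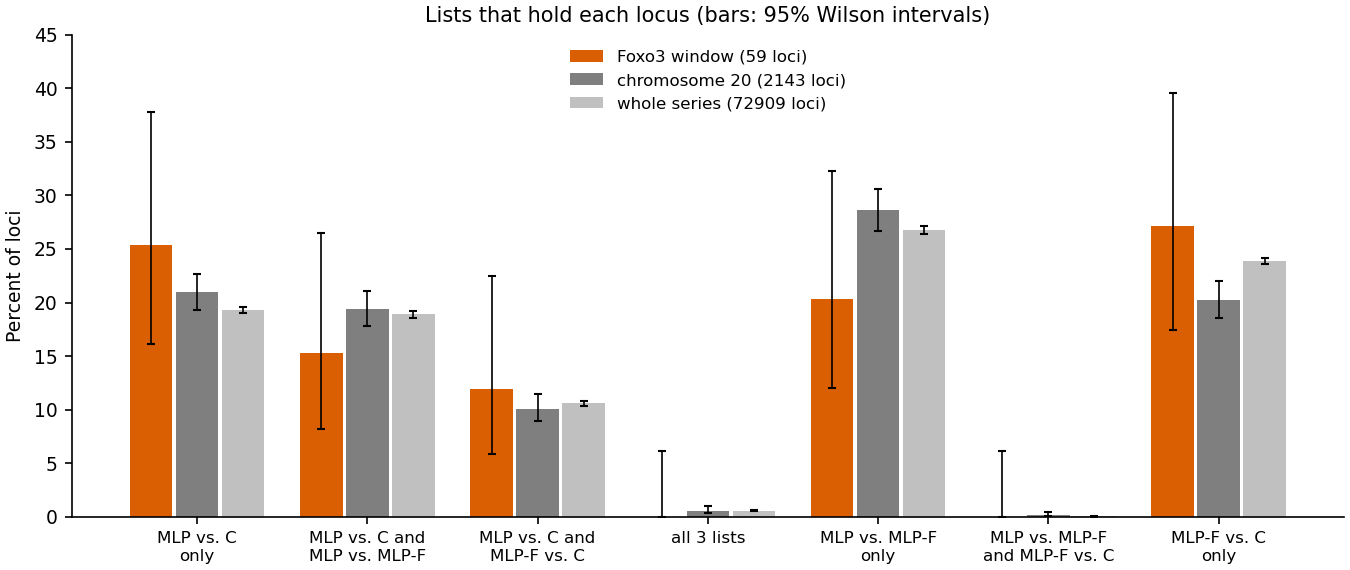
Percent of loci (y axis) held by each combination of lists (x axis) in the Foxo3 window (59 loci, orange), chromosome 20 (2143 loci, dark grey) and the whole series (72909 loci, light grey); error bars are 95% Wilson intervals for counting error. The Foxo3 window has 0 loci in all 3 lists, and its intervals overlap the percents of chromosome 20 and of the series in every combination.

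Some loci with different patterns lay close together in the window. Between neighbouring loci the median gap was 10.75 kb and the longest 69.3 kb, between 360.4 and 430.3 kb above Foxo3, and 7 of the 58 gaps were under 1 kb. In 6 of these 7 close pairs the neighbours differed in their combination of lists, though they could have a list in common. The DMR and its neighbour were such a pair, with a gap of 768 bp between the merged loci. Others formed a trio, in which an MLP vs. MLP-F region of 1044 bp 91.1 kb below Foxo3 (score 66.49) stood between the MLP vs. C regions of 1148 bp (56.17) and 811 bp (51.46), with gaps of 678 and 937 bp. Pairs under 1 kb apart numbered 3600 among the 72909 loci of the series and 145 among the 2143 loci of chromosome 20. Their neighbours differed in their combination of lists in 67.1% of pairs of the series and in 60.0% of those of chromosome 20. The interval of the window (85.7%, 48.7 to 97.4%) holds both values.

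The density of regions was above the median of chromosome 20 in each list. With 31.0 MLP vs. C regions per Mb, the window had 1.57 times the density of chromosome 20 (19.8 per Mb) and 2.4 times that of all placed chromosomes (12.9 per Mb). With 23.0 MLP-F vs. C regions per Mb it had 1.91 times the density of chromosome 20 (12.1 per Mb) and 2.53 times that of the placed chromosomes (9.08 per Mb). With 21.0 MLP vs. MLP-F regions per Mb the ratios were 1.11 (18.9 per Mb) and 1.73 (12.1 per Mb). At a score of at least 100, an alternative chosen after the data had been seen, the ratios to chromosome 20 were 1.64 for MLP vs. C, 1.34 for MLP-F vs. C and 0.727 for MLP vs. MLP-F, so the last fell below that chromosome. The regions covered 2.61% of the window in the MLP vs. C list, 2.0% in the MLP vs. MLP-F list and 1.66% in the MLP-F vs. C list, against 1.56%, 1.62% and 0.868% of chromosome 20.

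Among the 54 windows of 1 Mb along chromosome 20, 12 held more MLP vs. C regions than the Foxo3 window, 16 held more MLP vs. MLP-F regions and 3 held more MLP-F vs. C regions. The adjoining windows were dense as well. The window directly below held 31 MLP vs. C regions, 21 MLP vs. MLP-F regions and 32 MLP-F vs. C regions, and the window directly above held 39 MLP vs. C regions, 31 MLP vs. MLP-F regions and 18 MLP-F vs. C regions. The Foxo3 window therefore stood inside a dense stretch and was not a peak of its own. A gene count or CpG density of these windows was not analysed here, and their part in the density was not tested.

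**Figure D4:**
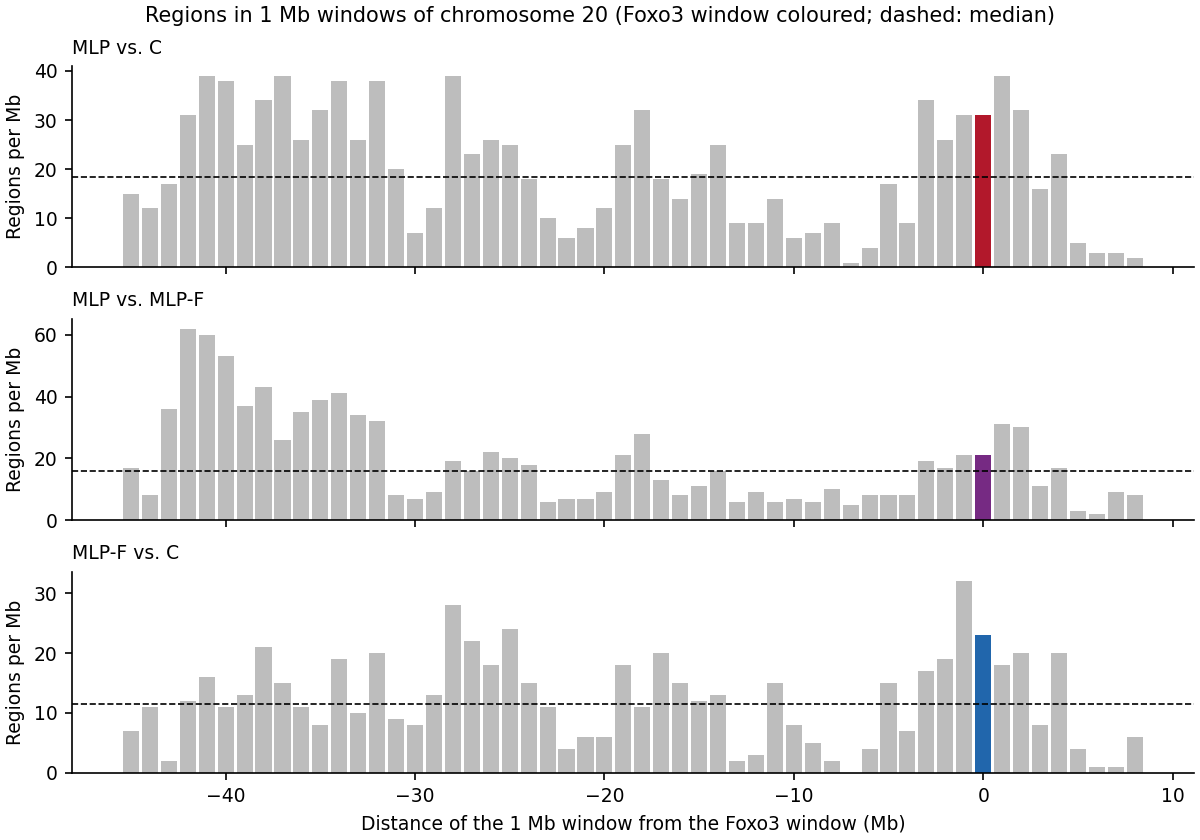
Number of listed regions in each of 54 windows of 1 Mb along chromosome 20 (y axis), against the distance of the window from the Foxo3 window in Mb (x axis), with a panel per list; the Foxo3 window is coloured and the dashed line is the median over the windows. The Foxo3 window holds 31, 21 and 23 regions, against medians of 18.5, 16.0 and 11.5.

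Within the window the regions of the MLP vs. C list were on both sides of Foxo3, with 16 below the DMR and 14 above it. Those of the other lists lay more often below, with 14 below and 7 above in the MLP vs. MLP-F list and 15 below and 7 above in that of MLP-F vs. C, a difference that was not tested. The regions had median lengths of 810 bp in the MLP vs. C list, 720 bp in the MLP vs. MLP-F list and 717 bp in the MLP-F vs. C list, against 673.5, 727 and 657 bp over the whole lists. At the edges of the window, the outermost members were an MLP-F vs. C region 2.0 kb inside the upper edge (score 75.7) and another 9.3 kb inside the lower edge (62.92). The nearest regions left out were MLP vs. MLP-F regions 4.5 kb beyond the upper edge (110.98) and 4.8 kb beyond the lower edge (52.76).

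Of 70 genes of insulin and FOXO signalling, the study's tables of annotated DMRs name 5 (7.14%): Foxo3, Enpp1, Fto, Pdk1 and Ppp2r5c. By current symbol the tables name 576 of 23154 protein-coding RefSeq genes (2.49%), a count that misses older symbols. Foxo3 was the only FOXO gene among them, and Sesn1, its neighbour on GRCr8, was not named. Ppp2r5c encodes a regulatory subunit of protein phosphatase 2A, Enpp1 an ectoenzyme that inhibits the insulin receptor, Pdk1 a pyruvate dehydrogenase kinase, and Fto an RNA demethylase linked to obesity. The list was written from general knowledge with the tables known, so nothing is read from its share, and it was not tested for enrichment.

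The pattern of the Foxo3 DMR was shared by Fto and Pdk1. The Fto region (chr19:16602030-16602537) scored 124.66 for MLP against C and 105.48 for MLP-F against C, and the Pdk1 region (chr3:54337327-54337900) scored 129.4 for MLP against C and 159.43 for MLP-F against C. At Enpp1 (chr1:21253352-21254024) the pattern was that of the neighbour of the DMR, with scores of 125.74 for MLP against C and 76.91 for MLP against MLP-F. Ppp2r5c (chr6:135272898-135275160) had this pattern too, with 1439.21 against C and 1757.64 against MLP-F. Foxo3, Fto and Pdk1 were thus listed above C in both low protein libraries, and Foxo3 had the lowest MLP-F vs. C score of them. Over the whole MLP vs. C list 21.5% of regions had the pattern of the DMR and 38.3% that of its neighbour. The genes come from a list written with the study's tables known, so nothing about the pathway is read from how many share a pattern. The MLP-F vs. C entries of these genes are known only to pass the p cut-off, and the study reports no DMR in that comparison.

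Windows of 1 Mb drawn around these genes by the same rule held 21 to 33 MLP vs. C regions, with 31 at Foxo3. The Foxo3 window had 23 MLP-F vs. C regions, against 35 at Enpp1, 16 at Ppp2r5c, 14 at Fto and 13 at Pdk1. Of the MLP vs. C regions, 9 of 31 were also in the MLP vs. MLP-F list at Foxo3, against 9 of 28 at Fto, 9 of 21 at Pdk1, 11 of 33 at Ppp2r5c, 6 of 26 at Enpp1 and 39.4% of the whole list. Those that overlapped an MLP-F vs. C region were 7 of 31 at Foxo3, against 6 of 28 at Fto, 4 of 21 at Pdk1, 4 of 33 at Ppp2r5c, 11 of 26 at Enpp1 and 22.6% of the whole list. These counts were not tested, since all of the windows come from the same 3 libraries.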

How the data were processed

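MBD-seq was analysed from livers of 3 groups of newborn rats, with 1 pooled library per group. Bowtie was used by the authors to map the paired reads to rn4, and MACS to find regions in which a library exceeded another. CASAVA is also named in the submitters' processing notes. No versions of these tools were given in the sources used here. The deposited lists give a position and a score for each region, with no read counts, so depth per region is unknown. Starts were converted to 1-based positions. Overlap means at least 1 bp. Regions were ranked by score within their list, and ties took the lower rank. Chromosome lengths were approximated by the largest region end. With 1 library per group no SD and no test of diet was possible, and 95% Wilson intervals cover counting error over regions only. Gene names come from the study's annotated tables, matched by position. Genes named are Foxo3, genes those tables give for regions of the window, and genes of the insulin and FOXO list that they name. Neighbours come from RefSeq on GRCr8. No rn4 sequence was used. The members and lists were chosen with earlier results of these data known. Overlap code was tested on simulated data. Alternatives were score thresholds of 100 and 200, a reciprocal overlap of 50%, distances of 1 and 10 kb, windows of 0.25 and 1 Mb on each side, and midpoints. Python 3.11.15, numpy 2.4.6, pandas 2.3.3, SciPy 1.17.1 and matplotlib 3.10.9 were used.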

Additional observations from a re-analysis of the deposited data

How the results depend on the processing

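Of 34 alternative values, 25 stayed within 1.5 times the count or within the Wilson interval reported above, among them every share of MLP vs. C regions found in another list and every density in windows of 0.25 or 1 Mb on each side. The other 9 came from score thresholds, which lower a count of regions by construction. That does not hold for the ratio of densities among them, since the threshold applies to the window and to chromosome 20 alike. At a score of at least 100 the window held 10 MLP vs. C, 5 MLP vs. MLP-F and 3 MLP-F vs. C regions per Mb in 16 loci, and at a score of at least 200 it held 2, 1 and 0. At a score of at least 100 the Foxo3 DMR was in 1 list in place of 2, because its MLP-F vs. C score is 84.15. When regions within 1 kb or 10 kb of the DMR were counted, 3 lists held a region there in place of 2. The neighbour with a gap of 770 bp is in the MLP vs. MLP-F list. That count is among the 25 values, but the absence of the DMR from the MLP vs. MLP-F list holds for direct overlap only. At that threshold the density of MLP vs. MLP-F regions was 0.727 times that of chromosome 20 in place of 1.11 times, an alternative chosen after the data had been seen. No paired analysis was possible because each group has 1 library. The number of regions in the window limits the precision of each share, and the depth behind each region is unknown.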
